A study of Mus musculus with 4 samples.

Results

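Stra8 is a gene that germ cells switch on when retinoic acid tells them to enter meiosis, and these data show its transcript in mouse haploid embryonic stem cells together with 8 genes through which retinoic acid is carried, sensed and removed. The 9 genes are Stra8, the retinoic acid receptors Rara, Rarb and Rarg, the binding proteins Crabp1 and Crabp2, the enzymes Cyp26a1 and Dhrs3, and the retinol transporter Stra6, out of 23235 gene symbols measured. Stra8 was chosen by its measured difference between the conditions compared here. Its difference is therefore a description and carries no test. The other 8 were chosen by their known roles, at a time when results of these data were already known. All 9 were found, and 7 of them had a mean of at least 1 FPKM (fragments mapped, scaled to transcript length and library size), the level from which genes were tested.

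The cells are the androgenetic line HG165, which carries the genome of a sperm only and was derived by the study from C57BL/6 mice. The study compared 2 libraries from cells given the solvent DMSO with 2 libraries from cells given RDF, a mixture of Repsox, an inhibitor of the TGF-β receptor, DMH1, an inhibitor of the BMP receptor, and Forskolin, which activates adenylate cyclase and so raises cAMP. Haploid cells were generally kept in serum medium with leukemia inhibitory factor. The growth protocol names feeder cells, while the study's methods state that most experiments were done without them and do not list sequencing among the exceptions. RDF was tested by the study as a way to slow the conversion of haploid cells to diploid ones. Only this 1 line was sequenced, and the dose, the length of treatment and the share of haploid cells in the sequenced samples are not given in the sources used here. Nothing in the labels ties a replicate to a separate culture, so the p-values measure the spread between these libraries, which may be technical.

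Retinoic acid is made from retinol, which enters cells with the help of Stra6, in 2 oxidation steps, and short-chain dehydrogenases such as Dhrs3 reverse the first of them. In the cytoplasm Crabp1 and Crabp2 bind retinoic acid, Crabp2 being the one known to hand it to nuclear receptors, and Cyp26 enzymes oxidise it for removal. The receptors sit with RXR partners on direct repeats of a short hexamer in DNA, and several of their targets, Rarb, Cyp26a1, Dhrs3 and Stra6 among them, belong to the retinoid system itself. Embryonic stem cells are known for a strong answer to added retinoic acid, in which Hox genes and Cyp26a1 are induced early. None of the 3 compounds in RDF is a retinoid.

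Depth was estimated at 10600000 and 12500000 fragments in the DMSO libraries, and at 13300000 and 12500000 in those from RDF-treated cells. These estimates assume that low values step by whole fragments and are approximate. All 10 markers of embryonic stem cells were at 25.8 FPKM or more in every library. Of these, 4 were called higher in RDF and 3 lower (limma adjusted p under 0.05), beside 13.3% and 8.28% of all tested genes. Their summed level, mostly that of Dppa5a, was 7460 to 7499 FPKM in DMSO and 4480 to 4982 in RDF. Genes known as fibroblast markers were also detected, with a summed level of 30.3 to 31.4 FPKM in DMSO and 24.1 to 24.8 in RDF. Of that list of 10 genes, 7 were tested, and of all tested genes 13.3% were called higher in RDF and 8.28% lower. Of the fibroblast markers, Col1a1, Col1a2 and Postn were lower in RDF, Dcn was higher and 3 did not pass, and none of the 10 was at 0. Whether these transcripts came from feeder cells or from the stem cells themselves was not tested. The summed level of 8 primitive endoderm markers was 14.9 to 15.4 FPKM in DMSO and 17.0 to 17.5 in RDF. That of 6 neural markers was 54.6 to 61.0 and 31.0 to 32.8, and that of 6 trophoblast markers 37.3 to 39.9 and 67.4 to 67.8. The neural sum came mostly from Tubb3, at 54.5 and 47.6 FPKM in DMSO and 26.7 and 24.1 in RDF. Nes was also lower in both RDF libraries, Pax6 and Sox1 were higher and the other neural markers overlapped. The trophoblast sum came mostly from Tfap2c, at 27.2 and 25.1 FPKM in DMSO and 48.3 and 50.7 in RDF. Eomes, Gata3 and Krt7 were also higher, and Cdx2 and Elf5 overlapped. Amn was lower, Gata4, Gata6, Dab2 and Foxa2 were higher and the other endoderm markers overlapped. The part of cells of these types in the results below was not tested. In these bulk samples, fewer cells of a type and less RNA per cell cannot be told apart.

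Stra8 stood at 20.9 FPKM in DMSO replicate 1 and 18.9 in DMSO replicate 2. It stood at 95.5 in RDF replicate 1 and 88.5 in RDF replicate 2. Every RDF library was thus far above every DMSO library, and the replicates of a condition were close together. The means were 19.9 ± 1.48 FPKM in DMSO and 92.0 ± 4.94 in RDF (SD, n = 2 each), a ratio of 4.62. On the scale used for testing, log2(FPKM + 1), the difference was 2.15 with an SE of 0.073, and it ranged from 2.08 to 2.23 when each library was left out in turn. It was the 11th highest of the 11733 differences measured, where the median gene differed by 0.03. Already in DMSO the gene was above 83.2% of all symbols by level, and in RDF above 95.5%. Among the 9 genes it came after Crabp1 and Rarg by level in DMSO and stood highest in RDF. By FPKM the order in DMSO was Crabp1, Rarg, Stra8, Crabp2, Rara, Dhrs3, Cyp26a1, Stra6 and Rarb, where Dhrs3 and Cyp26a1 overlapped. In RDF it was Stra8, Rarg, Crabp1, Crabp2, Rara, Cyp26a1, Dhrs3, Stra6 and Rarb, where Crabp2 and Rara overlapped and no other neighbours did.

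**Figure D1:**
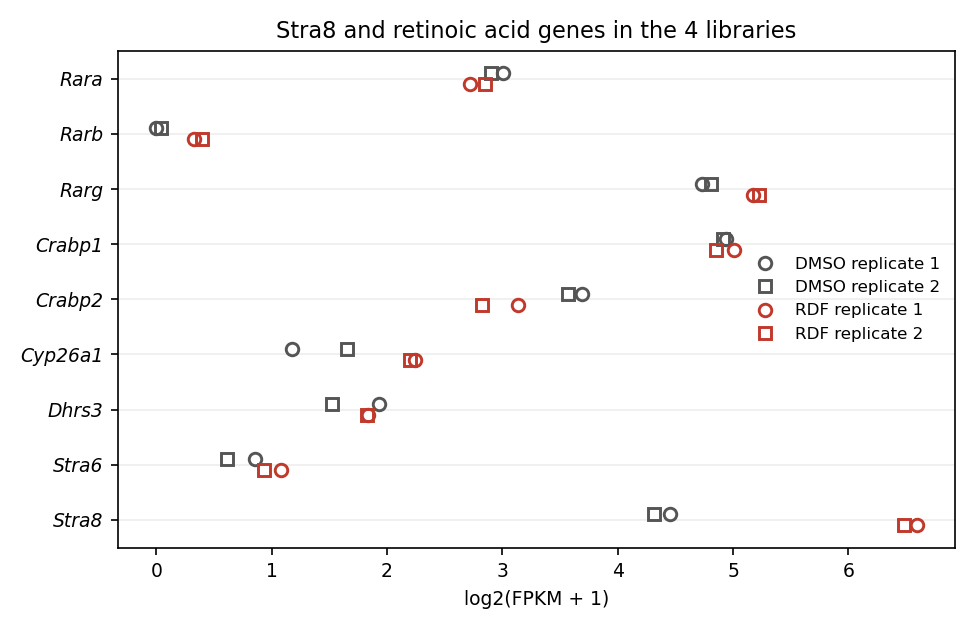
Level of the 9 genes in each of the 4 libraries, as log2(FPKM + 1) on the horizontal axis, with DMSO in grey and RDF in red and replicates 1 and 2 as circles and squares. The RDF libraries lie above both DMSO libraries for Stra8, Rarb, Rarg, Cyp26a1 and Stra6, below them for Rara and Crabp2, and overlap them for Crabp1 and Dhrs3.

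Stra8 lies on chromosome 6, at chr6:34870163-34889342 of NCBIM37 (mm9) on the plus strand, and is protein coding. To show the letters that retinoic acid receptors are known to bind, the window from 250 bases before to 50 bases after each RefSeq start was searched in both strands. The receptor hexamers were AGGTCA or GGTTCA or AGTTCA or GGGTCA, alone or as direct repeats with a spacer of 1 or 2 or 5 bases, so that a repeat also counts as 2 hexamers. The Stra8 window held 2 single hexamers, 194 and 38 bases before the start, and no direct repeat. They are shown with their neighbouring bases, the hexamer in capitals:
Stra8 distal hexamer, chr6:34870742-34870771, plus strand: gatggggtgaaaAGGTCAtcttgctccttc
Stra8 proximal hexamer, chr6:34870898-34870927, plus strand: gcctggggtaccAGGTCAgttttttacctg
GENCODE vM1 starts a Stra8 transcript further upstream and annotates both stretches as untranslated exon. A hexamer was found in 43.7% of the 32851 RefSeq windows, so its presence marks no small group of genes. The window also held the short form of the cAMP response element, TGACG, on the opposite strand and 32 bases downstream of the start, as did 20.8% of all windows. The full element TGACGTCA was not in the Stra8 window and was in 1.79% of all windows, and the E-box CACGTG was not in it either and was in 7.15%.

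The receptors came next in the path of the signal, and of them only Rarg passed the test. Rarg, the receptor with the highest level in these cells, was at 25.5 and 27.0 FPKM in DMSO and at 35.0 and 36.3 in RDF. Both RDF libraries were above both DMSO libraries, and Rarg rose by 0.43 (log2, SE 0.060, limma adjusted p = 0.00743). Rara was at 7.03 and 6.47 FPKM in DMSO and at 5.60 and 6.19 in RDF. Its RDF values were below its DMSO values without overlap, but the log2 difference of -0.17 did not pass the test (limma adjusted p = 0.224).

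Rarb, known as a direct target of retinoic acid as well as its receptor, was listed at 0 and 0.0315 FPKM in DMSO and was at 0.255 and 0.316 in RDF. That is the lowest level of the 9 genes and lies under the level for testing. In estimated fragments it came to about 1 over both DMSO libraries and about 21 over both RDF libraries. Their depth-corrected ratio was 18.8, with a 95% binomial interval of 3.02 to 778. The estimates take the longest coding transcript of 3034 nt, while the shortest has 1368 nt. The interval treats the estimates as counts pooled over libraries and leaves out the spread between libraries. Of the 3540 genes with a mean of 0.1 to 1 FPKM, 25.2% had both RDF values above both DMSO values, as Rarb had. Of the summed FPKM of the 3 receptors, Rarg made up 78.4% and 80.6% in DMSO and 85.7% and 84.8% in RDF. Rara made up 21.6% and 19.3% in DMSO and 13.7% and 14.5% in RDF, and Rarb less than 1% in every library. The 3 receptor genes lie at chr11:98789132-98836256 (Rara, plus strand), chr14:17263356-17651381 (Rarb, minus strand) and chr15:102065369-102087948 (Rarg, minus strand).

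The binding proteins differed from each other. Crabp1 was at 29.7 and 29.2 FPKM in DMSO and at 31.1 and 27.8 in RDF. The groups overlapped, and the log2 difference was 0.00 with an SE of 0.071 (limma adjusted p = 0.997), or -0.03 with median-ratio scaling. Crabp2 was at 11.9 and 10.9 FPKM in DMSO and at 7.77 and 6.08 in RDF. Both RDF libraries were below both DMSO libraries, and Crabp2 fell by 0.65 (log2, SE 0.118, limma adjusted p = 0.0148). Crabp1 stood 2.49 and 2.68 times as high as Crabp2 in DMSO and 4.01 and 4.57 times as high in RDF. The genes lie at chr9:54612555-54620917 (Crabp1) and chr3:87752588-87757298 (Crabp2), both on the plus strand.

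Cyp26a1, the enzyme that oxidises retinoic acid and a classical early target of it, was at 1.26 and 2.15 FPKM in DMSO and at 3.72 and 3.59 in RDF, about 21.1, 41.0, 77.9 and 68.4 fragments. All RDF values were above the DMSO values, although the DMSO libraries stood apart from each other. Cyp26a1 rose by 0.80 (log2, SE 0.167, limma adjusted p = 0.0221). The difference was 0.56 without DMSO replicate 1 and 1.04 without DMSO replicate 2. Dhrs3, which returns retinaldehyde to retinol, was at 2.82 and 1.88 FPKM in DMSO and at 2.56 and 2.55 in RDF. The RDF values lay between the DMSO values, and the difference of 0.10 did not pass (limma adjusted p = 0.667). Stra6, the retinol transporter, was at 0.808 and 0.526 FPKM in DMSO and at 1.11 and 0.905 in RDF, under the level for testing. Both RDF values were above both DMSO values, as in 25.2% of all genes with a mean of 0.1 to 1 FPKM. The genes lie at chr19:37772298-37776018 (Cyp26a1), chr4:144482730-144518112 (Dhrs3) and chr9:57911595-58001803 (Stra6), all on the plus strand.

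Of the 6 tested genes other than Stra8, 2 rose (Rarg, Cyp26a1), 1 fell (Crabp2) and 3 did not pass, whereas 13.3% of all 11733 tested genes were called higher and 8.28% lower at an adjusted p of 0.05 (limma). Whether these counts differ from that background was not tested. Each of the 3 calls depended on the libraries. Without RDF replicate 1 the limma adjusted p was 0.0544 for Rarg and 0.122 for Cyp26a1. Without RDF replicate 2 it was 0.0681 for Rarg, 0.119 for Cyp26a1 and 0.0724 for Crabp2. With no filter on low genes it was 0.0701 for Cyp26a1 and 0.0513 for Crabp2.

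**Figure D2:**
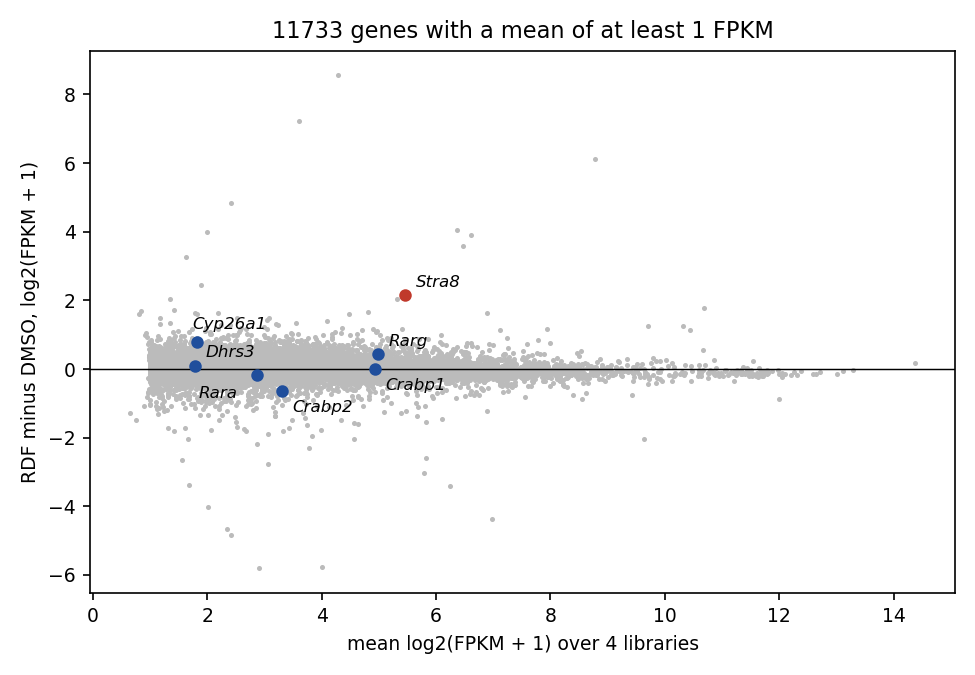
Difference between RDF and DMSO on the log2(FPKM + 1) scale against the mean level over the 4 libraries, for 11733 genes in grey, with Stra8 in red and the 6 other tested genes in blue. Stra8 lies well above the cloud at 2.15, while the others lie between -0.65 for Crabp2 and 0.80 for Cyp26a1.

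Of the 9 genes, 8 had at least 1 RefSeq window, 17 windows in all, and a direct repeat was found in those of Rarb and Cyp26a1, with a spacer of 5 in both. Such a repeat is in 0.0974% of all windows. The 200 bases before each start are shown because these are the only members with the full repeat, hexamers and repeats in capitals with the spacer included:
Rarb, chr14:17407991-17408190, minus strand: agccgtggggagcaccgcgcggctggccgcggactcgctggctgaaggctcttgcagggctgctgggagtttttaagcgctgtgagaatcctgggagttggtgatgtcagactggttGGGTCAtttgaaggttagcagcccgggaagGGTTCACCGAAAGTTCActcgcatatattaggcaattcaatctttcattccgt
Cyp26a1, chr19:37772098-37772297, plus strand: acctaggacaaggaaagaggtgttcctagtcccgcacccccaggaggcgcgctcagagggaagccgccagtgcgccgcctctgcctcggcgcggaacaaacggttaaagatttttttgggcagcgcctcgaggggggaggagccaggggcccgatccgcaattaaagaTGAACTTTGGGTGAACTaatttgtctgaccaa
The repeat in Rarb begins 53 bases before the start and reads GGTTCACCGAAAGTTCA on the sense strand. The Rarb window lies inside the gene as GENCODE vM1 draws it, outside its annotated exons. In Cyp26a1 the repeat lies 32 to 16 bases before the start and reads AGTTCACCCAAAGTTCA on the opposite strand. Spacers of 1 and 2 bases were not found in any member's window and are in 0.222% and 0.268% of all windows. Of the pathway and target lists described below, 33 and 20 genes had a window. None of those genes held a direct repeat with a spacer of 1, 2 or 5. Windows of Crabp1 and Dhrs3 held none of the letters searched, those of Rarg held 1 hexamer and those of Stra6 1. Of the 4 Rara windows, 2 held single hexamers, 2 held TGACG and 2 held the E-box. A match describes letters and is no evidence of binding.

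**Figure D3:**
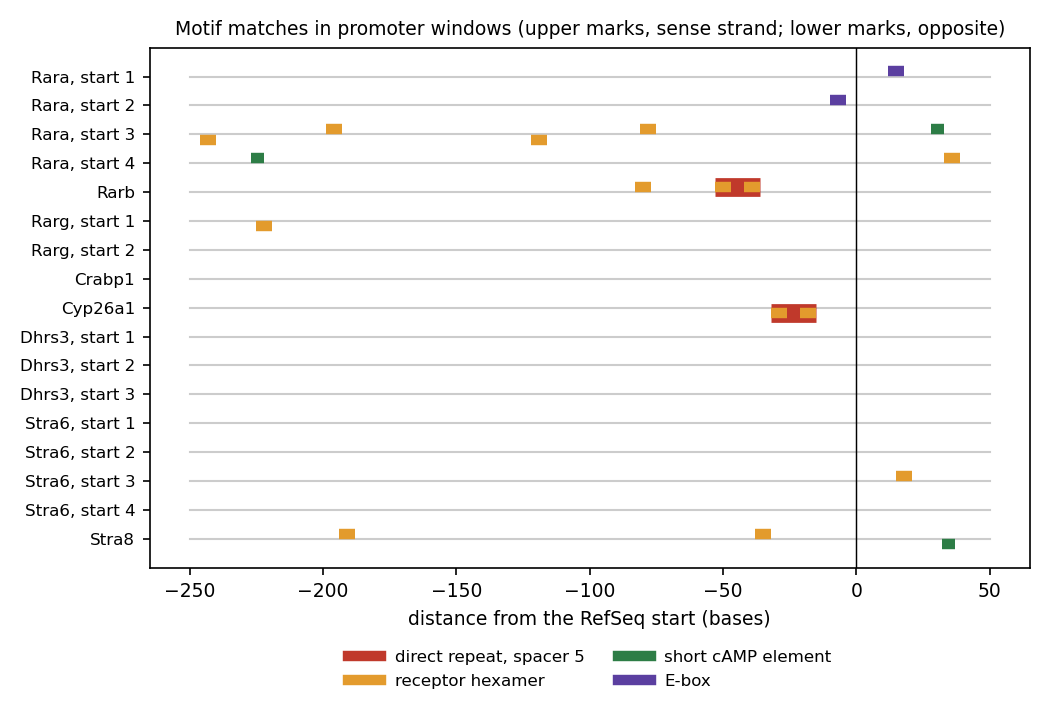
Motif matches in the 17 RefSeq promoter windows of 8 genes, by distance in bases from the start, with marks above a line for the sense strand and below it for the opposite strand. Direct repeats with a spacer of 5 appear in Rarb and Cyp26a1, and Stra8 holds 2 single hexamers.

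The other genes of the retinoid pathway came from a list of 41, divided by role, and 25 of them were tested, of which 4 rose, 1 fell and 20 did not pass, with a median log2 difference of 0.06 against 0.03 over all tested genes. Of all tested genes 13.3% were called higher and 8.28% lower, and whether the list differs from that was not tested. Of its genes under the level for testing, 8 had a mean of 0.1 to 1 FPKM. Of these, 3 had both RDF values above both DMSO values, 2 had both below and 3 overlapped. Of all genes in that range, 25.2% lay above and 22.2% below, and whether the list differs from that was not tested. The 2 pathway genes that lay below were Rdh5 and Aldh1a3, enzymes of synthesis. Of those that carry and store retinol, 2 were tested and neither passed: the differences were 0.00 for Rbp4 and 0.06 for Dgat1. Of 9 tested enzymes of synthesis, Adh7, an alcohol dehydrogenase with activity on retinol, was at 2.28 and 2.21 FPKM in DMSO and at 0.976 and 0.868 in RDF. It fell by 0.76 (log2, SE 0.109, limma adjusted p = 0.00766, and 0.0515 and 0.0632 without RDF replicates 1 and 2). Rdh10, which makes retinaldehyde from retinol in embryos, was at 2.24 and 2.02 FPKM in DMSO and at 2.88 and 3.16 in RDF, a difference of 0.36 (limma adjusted p = 0.0554, and 0.0375 with no mean-variance trend). Aldh1a2, which makes retinoic acid from retinaldehyde, was at 6.51 and 6.65 FPKM in DMSO and at 5.65 and 5.47 in RDF, a difference of -0.21 (limma adjusted p = 0.111). The remaining 6, Rdh11, Rdh12, Rdh14, Adh1, Adh5 and Dhrs4, lay between -0.33 and 0.01, and none passed.

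Partners of the receptors did not pass. The RXR receptors, which pair with retinoic acid receptors on DNA, had differences of -0.30 for Rxra and -0.20 for Rxrb (limma adjusted p = 0.108 and 0.129). Fabp5, which carries retinoic acid to Ppard, was at 15.5 and 20.9 FPKM in DMSO and 23.4 and 24.2 in RDF, with a difference of 0.38 (limma adjusted p = 0.0839). It did pass with the replicate number as a block (0.0418) and without DMSO replicate 2 (limma adjusted p = 0.00846), where the difference was 0.58. The difference for Ppard itself was 0.26 (limma adjusted p = 0.120).

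All 4 genes of the pathway list that rose were co-regulators, of which 10 were tested. Of all tested genes 13.3% were called higher, and whether the co-regulators differ from that was not tested. Ep300, a histone acetyltransferase that serves many nuclear factors, was at 5.29 and 5.01 FPKM in DMSO and at 9.84 and 11.1 in RDF. It rose by 0.90 (log2, SE 0.090, limma adjusted p = 0.00286), and it was the only pathway gene called under all 9 alternatives run. Nrip1, a repressor that retinoic acid is known to induce, rose by 0.62 (SE 0.114, limma adjusted p = 0.0152, and 0.0854 without RDF replicate 2). Ncor1, a co-repressor of receptors without ligand, rose by 0.48 (limma adjusted p = 0.00632, and 0.0514 and 0.0607 without RDF replicates 1 and 2). Ncoa3, a co-activator, rose by 0.46 (limma adjusted p = 0.00601, and 0.0576 without RDF replicate 2). Of the other 6, Ncoa1 had a difference of -0.09, and Ncoa2, Crebbp, Nr2c1, Nr2c2 and Nr2f6 lay between 0.10 and 0.40. Of these, Nr2c2 passed with no mean-variance trend (limma adjusted p = 0.0345 against 0.0592). None of these genes serves retinoic acid receptors alone.

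The target genes of retinoic acid were mixed. Of 32 genes known to be induced by retinoic acid in embryonic stem or embryonal carcinoma cells, 14 were tested. Among these, 5 rose, 3 fell and 6 did not pass, with a median log2 difference of 0.25, beside 13.3% of all tested genes called higher and 8.28% lower. Gata6, a factor of primitive endoderm, was at 2.83 and 1.45 FPKM in DMSO and at 4.36 and 4.19 in RDF, a difference of 0.78 (SE 0.205, limma adjusted p = 0.0428) that was 0.46 without DMSO replicate 2. The call was lost without that library (0.0532) and without RDF replicate 1 or 2 (limma adjusted p = 0.177 and 0.171). It is also one of the primitive endoderm markers above, of which 3 were tested and the other 2 did not pass.

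The other targets that rose were Nrip1, given above, Hoxa5 by 0.49 (limma adjusted p = 0.0240), the collagen chain Col4a2 by 0.39 (limma adjusted p = 0.0184) and the homeobox gene Cdx1 by 0.31 (limma adjusted p = 0.0494). In the opposite direction, the transcriptional repressor Bhlhe40 was at 179 and 183 FPKM in DMSO and at 112 and 116 in RDF. It fell by 0.66 (log2, SE 0.053, limma adjusted p = 0.00159), and it was the only target called under all 9 alternatives run. The ephrin Efnb1 fell by 0.50 (limma adjusted p = 0.0183), and the laminin chain Lamb1, a late target in endoderm differentiation, fell by 0.41 (limma adjusted p = 0.0141). These smaller calls were lost when 1 library was left out, and those of Cdx1 and Gata6 also with median-ratio scaling (limma adjusted p = 0.0687 and 0.0505). The limma adjusted p was then 0.0613 to 0.202 for Cdx1 and 0.0505 to 0.108 for Col4a2, whichever library it was. For Hoxa5 it was 0.0710, 0.122 and 0.0940 without DMSO replicate 2, RDF replicate 1 and RDF replicate 2, and for Efnb1 0.0637, 0.103 and 0.0743. For Lamb1 it was 0.0726 and 0.0998 without RDF replicates 1 and 2. Those that did not pass were Meis2 (0.29), Col4a1 (0.27), Pax6 (0.24), Lama1 (0.06), Tbx1 (-0.02) and Tgm2 (-0.09), all log2 differences.

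**Figure D4:**
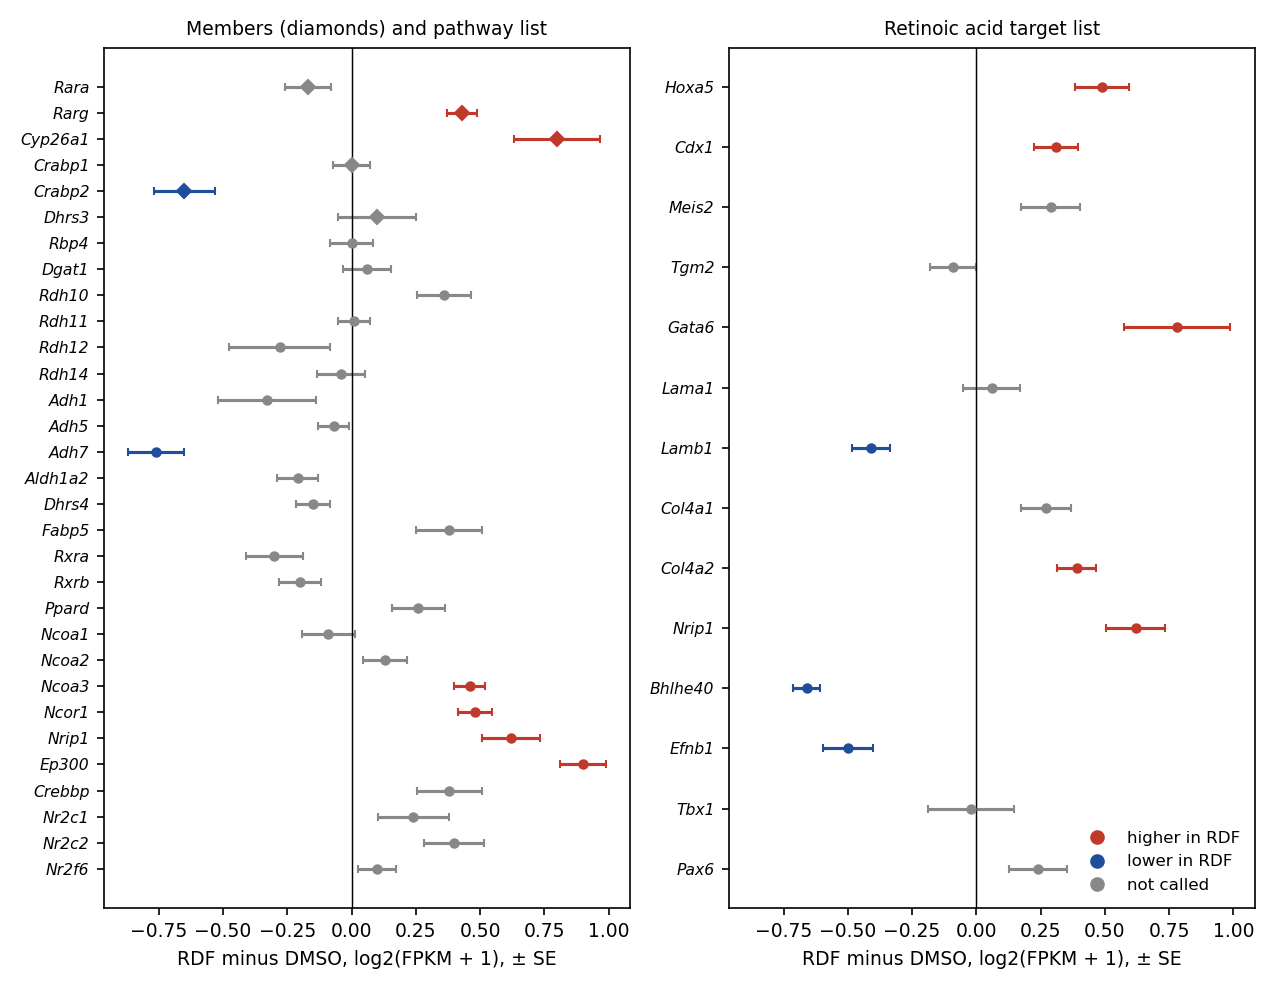
Difference between RDF and DMSO on the log2(FPKM + 1) scale with limma's SE, for 6 members (diamonds) and 25 pathway genes on the left and 14 target genes on the right. Genes called higher are red, those called lower blue and the rest grey. Ep300 (0.90) lies farthest right, and Adh7 (-0.76) farthest left.

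Many targets were too low to be tested. Of the 32, 17 had a mean of 0.1 to 1 FPKM. Among these, 10 had both RDF values above both DMSO values, 1 had both below and 6 overlapped. Over all genes in that range the shares were 25.2% above and 22.2% below. The pathway and target lists share 4 genes, Cyp26b1, Nr2f1, Nr2f2 and Nrip1. The first 3 of these are also the pathway genes counted as above in this range, so the 2 counts are not independent. Cyp26b1, the sister enzyme of Cyp26a1, was at 0.127 and 0.0549 FPKM in DMSO and at 0.544 and 0.628 in RDF. Meis1, a partner of Hox proteins, was at 0.286 and 0.319 FPKM in DMSO and at 0.698 and 0.812 in RDF. The orphan receptor genes Nr2f1 and Nr2f2 were at most at 0.359 FPKM in DMSO and at least at 0.403 in RDF. The Hox genes in this range were less uniform: Hoxb4 and Hoxb5 were above in RDF, and Hoxa2, Hoxa3 and Hoxb2 overlapped. Hoxb1, an early retinoic acid target, was listed at 0 in both DMSO libraries and was at 0.0785 and 0.0431 in RDF. These genes were named after their values were seen, and at such levels they rest on few fragments.

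**Figure D5:**
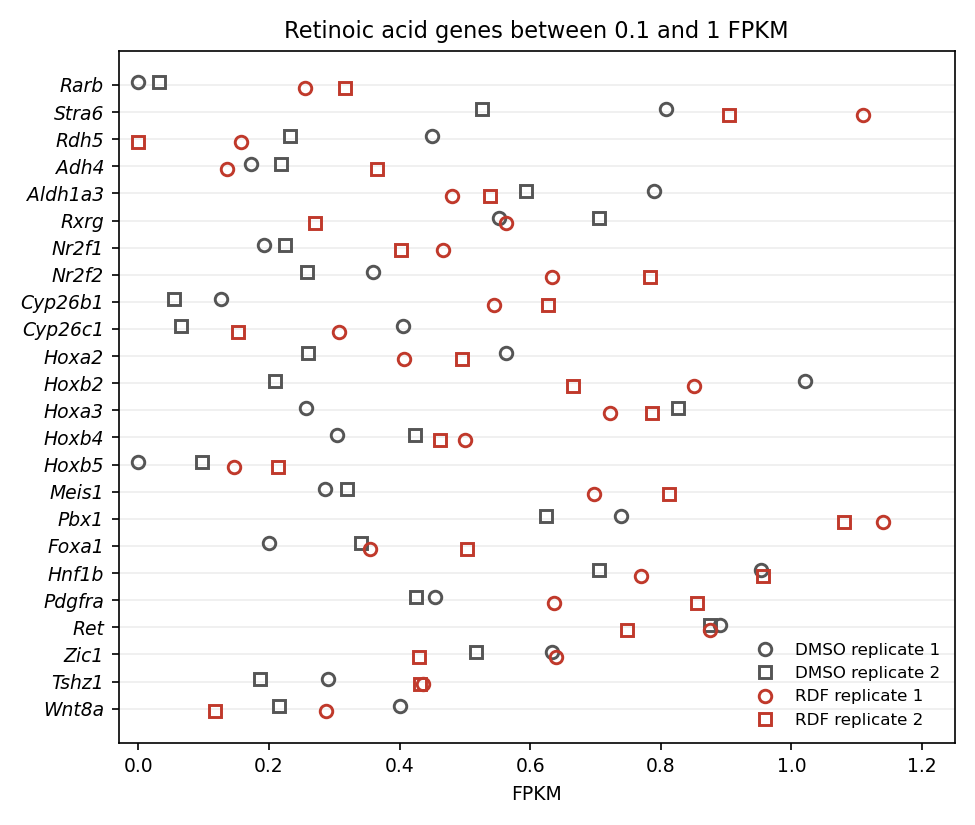
FPKM in each of the 4 libraries for Rarb, Stra6 and the 22 pathway and target genes with a mean of 0.1 to 1 FPKM, DMSO in grey and RDF in red. For Cyp26b1, Meis1, Nr2f1 and Nr2f2 the RDF libraries lie above both DMSO libraries, whereas genes such as Hoxa2 and Hoxa3 overlap.

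Of 23 germline genes that accompany Stra8 in germ cells entering meiosis, 22 were found and 15 tested, of which 1 rose and 1 fell, beside 13.3% and 8.28% of all tested genes. Hormad1, which marks unpaired chromosome axes, rose by 0.41 (limma adjusted p = 0.0425, 0.127 without DMSO replicate 2, 0.139 without RDF replicate 1 and 0.190 without RDF replicate 2). The recombinase Dmc1 fell by 0.29 (limma adjusted p = 0.0332, and 0.0982 to 0.132 when any 1 library was left out). The other 13 did not pass and lay between -0.16 for Ddx4 and 0.34 for Smc1b. Among the untested genes Nanos3, a factor of early germ cells, had the largest difference, with 1.05 and 2.05 FPKM in DMSO and 0.149 and 0.318 in RDF, without overlap. It was named after its values were seen. Rec8, the meiotic cohesin that retinoic acid also induces, was at 4.85 and 5.16 FPKM in DMSO and at 5.11 and 5.39 in RDF, a difference of 0.06. Sycp3, a component of the chromosome axis, was at 49.2 and 44.5 FPKM in DMSO and at 48.3 and 50.4 in RDF, a difference of 0.08. Dazl, known to be needed for germ cells to answer retinoic acid, had a difference of 0.03. The groups overlapped for Rec8, Sycp3 and Dazl.

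All 14 genes of the complexes known to hold germline genes silent in embryonic stem cells were tested. Of these, 1 rose and 1 fell, beside 13.3% and 8.28% of all tested genes. Mga rose by 0.65 (limma adjusted p = 0.00555, 0.0527 without RDF replicate 2) and L3mbtl2 fell by 0.39 (limma adjusted p = 0.00843, 0.0694 without RDF replicate 2). The other 12 did not pass and lay between -0.17 for Pcgf6 and 0.30 for Ring1. Of 12 genes known to rise with cAMP, 8 were tested and 5 rose, beside 13.3% of all tested genes. They were Egr1, Nr4a1 by 0.86, Dusp1 by 0.75, Sik1 by 0.74 and Fos by 0.73 (limma adjusted p = 0.00154, 0.00141, 0.00259 and 0.00129 for the last 4). Which compound they answered to was not tested, since RDF was sequenced only as a mixture. Of 10 TGF-β and BMP targets, 5 fell and 2 rose, beside 8.28% and 13.3% of all tested genes. The largest fall was that of Lefty2, an inhibitor of Nodal, from 120 and 115 FPKM to 1.15 and 1.19, or by 5.77 (log2, limma adjusted p = 1.04e-06). Those that rose were Id3 by 1.66 and Id2 by 0.27 (limma adjusted p = 0.000823 and 0.0399). The call of Id2 was lost when any 1 library was left out (limma adjusted p = 0.0672 to 0.161) and with median-ratio scaling (0.0641), no filter (0.0818) or no trend (0.0814).

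The genes whose pattern over the 4 libraries was nearest to that of Stra8 were found by the Euclidean distance between log2(FPKM + 1) values centred on each gene's mean. Since this picks genes by the same values, their differences carry no test. Nearest was Egr1, an early transcription factor, at a distance of 0.256, with 19.0 and 18.5 FPKM in DMSO and 74.4 and 84.8 in RDF. Mcpt8, a mast cell protease, followed at 0.304, with 0.418 and 0.115 FPKM in DMSO and 5.01 and 3.41 in RDF. Mmp3, a matrix metalloproteinase, came next at 0.319, with 0.687 and 0.493 FPKM in DMSO and 7.57 and 7.83 in RDF. S100a8, a calcium-binding protein of myeloid cells, was listed at 0 in DMSO and was at 2.39 and 2.08 in RDF, at a distance of 0.473, and 2210409E12Rik had a distance of 0.534. The nearness of Mcpt8, Mmp3 and S100a8 depends on the 1 added before the logarithm. The ratio of RDF to DMSO means was 4.62 for Stra8, 4.25 for Egr1 and 3.15 for 2210409E12Rik, but 15.8 for Mcpt8 and 13.1 for Mmp3. With 0.1 added instead, the log2 differences of Mcpt8, Mmp3 and S100a8 were 3.67, 3.51 and 4.54, all above that of Stra8. The distances were not recomputed on that scale. No retinoid pathway or target gene was among these 5 nearest genes. The largest difference of a tested gene in those lists was 0.90 (Ep300), against 2.15 for Stra8. None could therefore be this near, and their absence adds nothing to the differences given above.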

How the data were processed

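The authors mapped reads of stranded mRNA libraries to mm9 with TopHat2 2.0.14 and Bowtie2 2.1.0 and deposited FPKM per gene from Cufflinks 2.2.1 on the UCSC annotation, as the methods and the submitters' processing notes give. Reads were not used here. Conditions were taken from the labels. Values were tested as log2(FPKM + 1) with limma 3.58.1 in R 4.3.3 (eBayes with a mean-variance trend) for the 11733 genes whose mean reached 1 FPKM, with Benjamini-Hochberg adjustment over all of them and a threshold of 0.05, after the procedure was tested on simulated data. FPKM understate the change of low genes on this scale. An exact test of 2 against 2 libraries cannot reach the threshold and was not used. Depth was estimated from 3724 genes with 1 annotated transcript. The depth taken for each library was the one that brought their low values closest to whole fragments. At that depth 45.2% to 52.0% of these values were within 0.1 of a whole fragment, where an even spread gives 20.0%. The search itself raises this share, so it is no test of the estimates.

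Members and lists were chosen with earlier results of these data known. Some listed genes are not reported here and were left out of the lists and their counts. The text names all members, the pathway and target genes that were tested, some genes of the other lists, and the 5 genes nearest to Stra8. Gene positions are from GENCODE vM1 (NCBIM37), matched by symbol. Promoter windows are from RefSeq (GRCm38.p6), and the stretches printed were placed in NCBIM37 by exact match. Alternatives were a pseudocount of 0.1, no filter, median-ratio scaling, the replicate number as a block, no trend and each library left out.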

Additional observations from a re-analysis of the deposited data

How the results depend on the processing

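With 2 libraries a condition, the calls rest on few values, and genes near 1 FPKM on few fragments. Leaving out 1 library gave 253 to 1121 genes called higher and 195 to 731 lower, against 1561 and 972 (limma). Of the tested genes other than Stra8 it left 0 to 2 higher and 0 to 1 lower, of the pathway list 1 to 5 higher and 0 to 1 lower, and of the targets 0 to 3 higher and 1 to 3 lower, against 5 and 3. Over all genes, the fewest were called without RDF replicate 2. With no filter 942 genes were called higher and 606 lower, and 0 of the members lower. Of the targets, 3 were called higher with no filter, 3 with median-ratio scaling and 3 with no mean-variance trend. The cause was not tested.

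Several differences changed sign. With median-ratio scaling the log2 difference was -0.03 for Crabp1, -0.03 for Rbp4 and -0.02 for Rdh11. Leaving out 1 library gave -0.08 to 0.08 for Crabp1, -0.11 to 0.30 for Dhrs3, -0.05 to 0.06 for Rbp4, -0.03 to 0.15 for Dgat1, -0.03 to 0.06 for Rdh11, -0.58 to 0.01 for Rdh12, -0.07 to 0.19 for Lama1, -0.22 to 0.19 for Tbx1 and -0.13 to 0.20 for Dazl. None of these genes had passed the test. In the counts that follow, genes not called in either fit are among those that kept their side. With no filter, a replicate block or no trend the log2 difference is the same by construction, so it could not turn. Of 558 values recomputed for named genes given with a test, 473 kept their direction and their side of the threshold, 62 lost it, 5 gained it and 18 turned.

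The replicate numbers are not said to mark a shared culture, and deviations of same-numbered libraries correlated weakly (Pearson r 0.134, Spearman rho 0.114 over 11733 genes). With the number as a replicate block, 1651 genes were called higher and 1066 lower, with 2 members higher and 1 lower, as without it. The block took the pathway list from 4 to 5 called higher, with Fabp5 added (limma adjusted p = 0.0418), and no mean-variance trend took it to 6.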
